A study of Mus musculus with 18 samples.

Results

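The Cyp2c, Cyp2d, Cyp2f and Cyp2j genes of the mouse, 4 subfamilies of the cytochrome P450 family 2, were followed in nuclear RNA of liver. Members were all rows of the raw count table whose symbol is Cyp2 followed by c, d, f or j and a number, which gave 31 of 20105 genes, namely 15 Cyp2c, 8 Cyp2d, 1 Cyp2f and 7 Cyp2j genes. Of these, 27 had counts in all 6 groups of libraries. The other 4 were Cyp2c65, Cyp2d12, Cyp2d34 and Cyp2j12, with at most 8 counts in any group.

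The groups came from 6 female HEP-INTACT mice, whose hepatocyte nuclei carry a tag that allows them to be pulled out of a liver nuclei suspension by immunoprecipitation (IP). The promoter or Cre driver of the tag is not given in the sources used here. A set of 3 mice was fasted for 16 h from zeitgeber time 12, the onset of the active phase, and 3 control mice fed ad libitum were killed at the same time point. Each mouse gave a frozen-liver IP, a fresh-liver IP and the supernatant of the fresh-liver IP, so that the 6 groups (fasted and fed, each as frozen IP, fresh IP and fresh supernatant) hold 3 libraries each. RNA was not selected for poly-A tails, and the feature counted spans the whole gene with its introns, so values reflect nuclear RNA, unspliced transcripts included.

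Microsomal P450 enzymes sit in the endoplasmic reticulum, carry heme, and receive electrons from P450 oxidoreductase and cytochrome b5. Enzymes of these subfamilies oxidise drugs, steroids, bile acids and retinoids, and several Cyp2c and Cyp2j enzymes turn arachidonic acid into epoxides, which soluble epoxide hydrolase then opens. The genes arose by repeated local duplication, so neighbouring members are close copies of each other, and many differ between the sexes under the control of growth hormone.

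Cyp2d genes lay on chromosome 15 (82370527 to 82794245 on mm10) and Cyp2j genes on chromosome 4 (96042660 to 96664119). The Cyp2c genes lay on chromosome 19, of which 14 stood between 39007019 and 40187286 and Cyp2c44 (Cyp2c23 in RefSeq) a further 3817735 bases away. Cyp2f2 lay on chromosome 7 (27119955 to 27133660), where the GENCODE annotation has an antisense gene, Gm15883, over 6194 of its bases. In 5 sets the proteins were at least 90% identical. Cyp2c67, Cyp2c68, Cyp2c40 and Cyp2c69 form one set, with identities of up to 97.2%, and Cyp2c37, Cyp2c54 and Cyp2c50 another, with up to 94.5%. The pairs were Cyp2c38 with Cyp2c39 (92.0%), Cyp2c65 with Cyp2c66 (93.7%) and Cyp2d10 with Cyp2d11 (91.3%). Of the 50-base words in the spliced Cyp2c40 transcript, 72.1% also occurred in another member, against 43.3% for Cyp2c68, 7.45% for Cyp2c38 and none for Cyp2c70, Cyp2c44, Cyp2c55, Cyp2j9 and Cyp2f2. These shares cover spliced transcripts of members only. Introns, which were counted as well, and the rest of the genome were not compared. How the authors counted reads that match several genes, and which strand they counted, is not given in the sources used here. The split of counts within a set is therefore uncertain, as is that between Cyp2f2 and its antisense partner.

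RefSeq promoters (GRCm38.p6, 250 bases before to 50 after the start) were held for 26 of the 31 members and were searched on both strands, since many members changed in fasting. The letters CAAAGTCC, bound by the hepatocyte factor HNF4A, occurred in 7 of the 26 promoters (26.9%) and in 1.42% of all 32851 promoters. The 7 were Cyp2c40, Cyp2c65, Cyp2c66, Cyp2c67, Cyp2c68, Cyp2c69 and Cyp2c70. Windows of 88 bases around the match, all on the minus strand of chromosome 19 and read 5′ to 3′, are shown for the 5 of these genes with a mean above 1 CPM (counts scaled to library size with TMM factors) in IP, with the match in capitals.
Cyp2c40 (chr19:39812812-39812899): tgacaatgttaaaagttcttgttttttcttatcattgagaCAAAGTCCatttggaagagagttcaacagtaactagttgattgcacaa
Cyp2c69 (chr19:39886797-39886884): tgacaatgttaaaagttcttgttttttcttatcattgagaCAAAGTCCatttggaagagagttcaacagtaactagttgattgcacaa
Cyp2c67 (chr19:39649120-39649207): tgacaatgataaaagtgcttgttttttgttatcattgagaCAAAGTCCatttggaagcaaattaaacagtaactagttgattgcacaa
Cyp2c68 (chr19:39741131-39741218): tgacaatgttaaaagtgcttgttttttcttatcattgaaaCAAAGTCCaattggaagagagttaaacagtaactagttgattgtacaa
Cyp2c70 (chr19:40187303-40187390): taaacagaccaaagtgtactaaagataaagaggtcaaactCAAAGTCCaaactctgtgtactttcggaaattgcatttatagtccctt
The Cyp2c40 and Cyp2c69 windows were identical at 88 of 88 positions, those of Cyp2c40 and Cyp2c67 at 81 and those of Cyp2c40 and Cyp2c68 at 83. Cyp2c70 matched Cyp2c40 at 29 positions, so the matches of the 4 near-identical genes lie in near-identical sequence and are not separate occurrences. The Cyp2c65 and Cyp2c66 windows were identical at 84 positions, so the 7 matches lie in 3 sets of sequence.

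The D-box TTANNTAA, bound by the clock output factors DBP, TEF and HLF, occurred in 5 of the 26 promoters (19.2%; Cyp2c38, Cyp2c65, Cyp2c66, Cyp2c70 and Cyp2d26) against 6.003% of all. Cyp2c65 and Cyp2c66 again count as copies there. The C/EBP letters TTGCNNAA occurred in 6 (23.1% against 10.8%), of which the near-identical Cyp2c40, Cyp2c67 and Cyp2c69 supply 3, in addition to Cyp2c37, Cyp2j8 and Cyp2j9. Shares that count such copies separately do not compare evenly with those of all promoters. The TATA box letters TATAAA occurred in 16 (61.5% against 13.6%) and the STAT5 letters TTCNNNGAA in 2 (7.69% against 8.30%). Matches of TATAAA lay from 162 bases before the start (Cyp2c65) to 41 after it (Cyp2c40). Position was not part of the search and either strand counted, so the 16 are not all placed as a TATA box. The HNF1 motif (1.03% of all) and the DR4 repeat of the receptors CAR and PXR (0.858% of all) were in none of the 26 windows. No match of one motif overlapped that of another. Promoters of the genes with the largest fall and the largest rise in fasting are given in full, with all matches in capitals. In Cyp2c70 these are the D-box (109 bases before the start), the HNF4 letters (64) and the TATA box letters (29). The last read TTTATA, the reverse complement of TATAAA. In Cyp2j8 they are the C/EBP letters (167).
Cyp2c70 (chr19:40187237-40187536): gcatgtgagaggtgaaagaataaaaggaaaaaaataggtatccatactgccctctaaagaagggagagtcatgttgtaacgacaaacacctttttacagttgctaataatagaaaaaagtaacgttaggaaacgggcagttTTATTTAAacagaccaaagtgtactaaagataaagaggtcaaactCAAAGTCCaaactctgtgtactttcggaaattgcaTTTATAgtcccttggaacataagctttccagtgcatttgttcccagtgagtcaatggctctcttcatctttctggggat
Cyp2j8 (chr4:96507348-96507647): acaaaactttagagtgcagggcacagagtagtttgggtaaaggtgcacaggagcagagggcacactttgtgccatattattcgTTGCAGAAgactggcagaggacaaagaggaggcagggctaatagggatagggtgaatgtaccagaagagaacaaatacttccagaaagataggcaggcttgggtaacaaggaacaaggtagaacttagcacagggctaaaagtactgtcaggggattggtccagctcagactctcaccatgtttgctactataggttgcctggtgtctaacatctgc
A match is a stretch of letters and no measure of binding. Both genes are on the minus strand.

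Total counts ran from 13828945 to 54434263 per library, of which members took 0.484 to 1.25% in IP and 0.0149 to 0.0290% in supernatant. The pulled-down nuclei were checked against their markers. All 9 hepatocyte markers in the table were called higher in IP than in supernatant, and all 8 endothelial, 8 Kupffer cell, 8 stellate cell and 8 lymphocyte markers were called lower in IP. Of 4 tested cholangiocyte markers, 3 were called higher and 1 lower in IP (median 2.55). Columns of the count table carry the letters A, B and C, which no label explains. Libraries of the same letter deviated together across preparations, so that a letter within a feeding state marks 1 mouse (correlation 0.304 to 0.682 between fresh and frozen IP).

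Levels between genes were compared per kb of gene length, as CPM per kb in fresh IP. Cyp2d26 stood highest, with 51.0 ± 8.45 in fasted and 57.6 ± 11.5 in fed mice (SD, n = 3 each). It was followed in fed mice by Cyp2c69 (4.11 ± 1.38 in fasted and 36.5 ± 47.2 in fed mice), Cyp2j5 (22.9 ± 2.44 and 32.9 ± 6.19), Cyp2c38 (37.0 ± 13.7 and 30.8 ± 5.56) and Cyp2d10 (28.1 ± 2.54 and 29.7 ± 6.20), whose fed values overlapped within their SD. The place of Cyp2c69 came from fed library C, which had 90.9 CPM per kb against 6.46 and 12.1 in fed libraries A and B. Without that library, a choice made after seeing the data, its fed mean was 9.27, at rank 10 among members. Genes above it then included Cyp2d10 (32.8), Cyp2j5 (32.3), Cyp2c38 (31.0) and Cyp2c70 (16.1). Cyp2c70 had 1.15 ± 0.554 in fasted and 19.5 ± 5.91 in fed mice. Among the tested genes the lowest of each subfamily in fed mice were Cyp2c66 (0.00455 ± 0.000408 in fasted and 0.00449 ± 0.00271 in fed mice), Cyp2d11 (0.354 ± 0.139 and 0.111 ± 0.0264) and Cyp2j8 (0.570 ± 0.218 and 0.147 ± 0.0548). The gene body was counted, so a level per kb compares transcribed regions and not mRNA molecules.

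**Figure D1:**
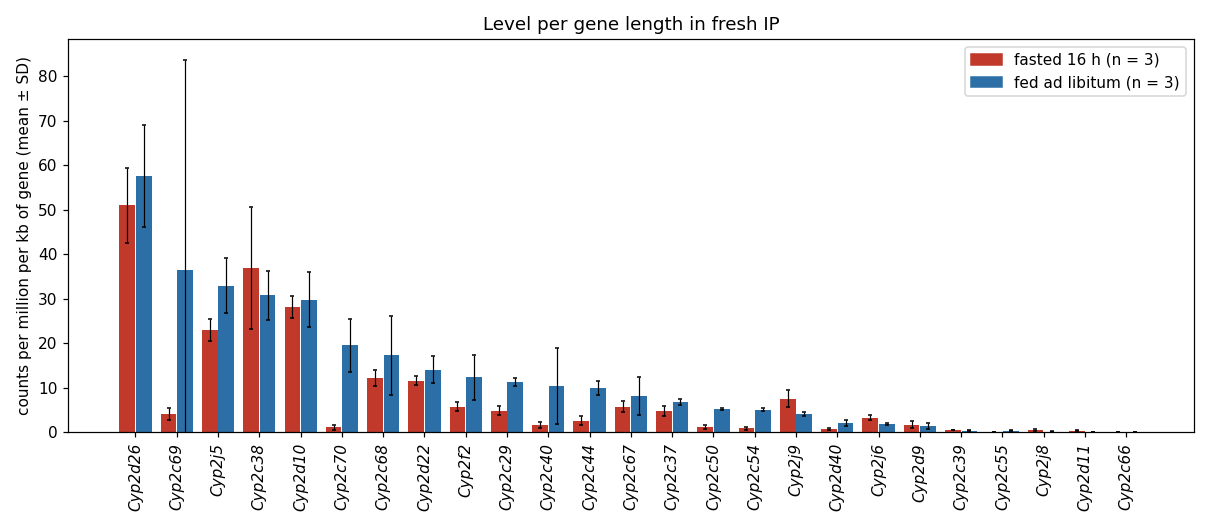
Mean CPM per kb of gene length (bars, linear axis) with SD (lines) of the 25 tested genes in fresh IP of fasted (red, left) and fed (blue, right) mice, n = 3 each, ordered by the fed mean. Cyp2d26 leads in both feeding states, and the SD of Cyp2c69 in fed mice (47.2) exceeds its mean (36.5).

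Fasting was compared with feeding in fresh IP, the question named by the series' title. Of 25 members that passed the filter on low counts, 10 fell and 4 rose (edgeR quasi-likelihood, Benjamini-Hochberg adjusted p under 0.05 over 12548 genes). Over all genes tested 12.6% fell and 12.4% rose, or 25.1% changed. The median log2 fold change of the 25 was -0.49, against 0.011 over all genes. The subfamilies differed in direction, as 8 of 14 Cyp2c genes and Cyp2f2 fell, 3 of 4 Cyp2j genes rose, and of 6 Cyp2d genes 1 rose and 1 fell. Fasted and fed libraries did not overlap in 16 of the 25 members, beside 44.9% of all genes tested. The 6 members that were not tested were Cyp2c65, Cyp2d12, Cyp2d34 and Cyp2j12, named above, and Cyp2j11 and Cyp2j13, which had counts in all 6 groups. Cyp2j11 had 7 to 14 counts and Cyp2j13 4 to 20 counts per group of 3 libraries. Fewer nuclei of one kind and less RNA in each nucleus cannot be told apart in these data.

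**Figure D2:**
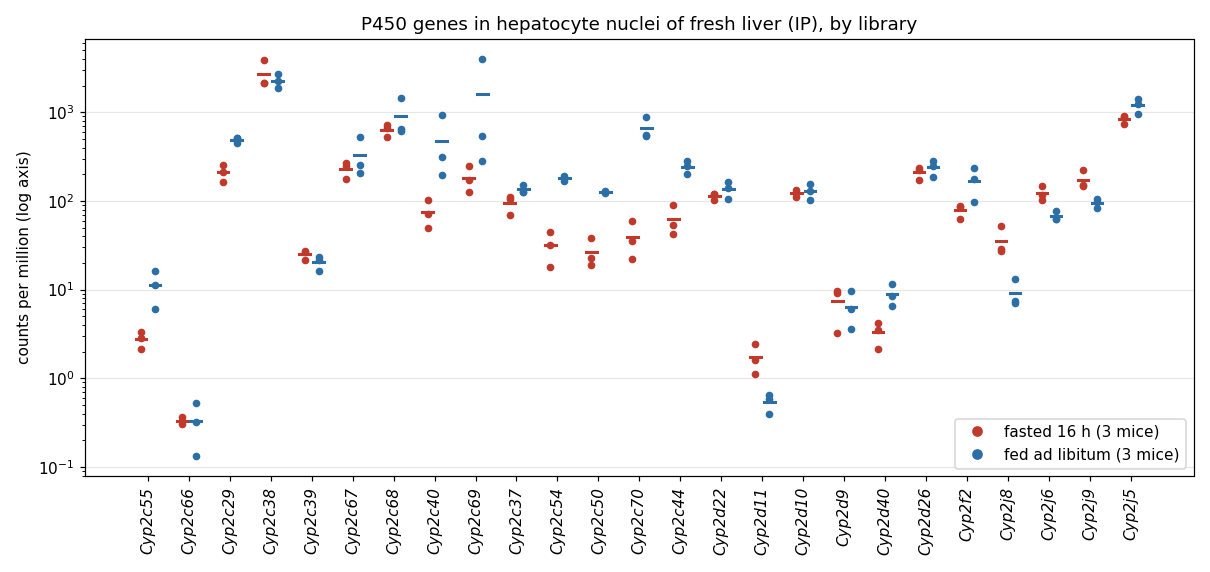
CPM on a log axis in each fresh IP library, with fasted mice in red on the left and fed mice in blue on the right of each gene; horizontal bars are group means (n = 3). Cyp2c70 shows the widest gap, with 22.2 to 59.3 CPM in fasted and 534 to 894 CPM in fed mice, and the 3 Cyp2j genes Cyp2j8, Cyp2j6 and Cyp2j9, stand higher in fasted mice.

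Cyp2c70, which hydroxylates bile acids to the muricholic acids of the mouse, had 59.3, 22.2 and 35.2 CPM in fasted libraries A, B and C and 560, 534 and 894 CPM in fed libraries. Every fasted library lay below every fed one. Its log2 fold change was -4.07 ± 0.47 (SE; edgeR adjusted p = 0.00116), the largest among members, and it stayed between -4.52 and -3.79 with each library left out.

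Cyp2c54 and Cyp2c50, arachidonic and linoleic acid epoxygenases, fell together. Cyp2c54 had 17.98, 31.8 and 44.6 CPM in fasted libraries and 180, 191 and 168 CPM in fed ones (log2 fold change -2.50 ± 0.39, adjusted p = 0.00174). Cyp2c50 had 22.4, 37.96 and 18.7 CPM in fasted libraries and 125, 130 and 121 CPM in fed ones (-2.23 ± 0.31, adjusted p = 0.00152). Their close copy Cyp2c37, an enzyme that yields 12-hydroxyeicosatetraenoic acid, had 105, 109 and 68.8 CPM in fasted and 128, 127 and 151 CPM in fed libraries, which did not overlap but missed the threshold (-0.50 ± 0.23, adjusted p = 0.0899). DESeq2 called it lower (-0.52, adjusted p = 0.0462). Cyp2c37 made up 52.1 to 72.2% of the summed counts of the 3 copies in fasted libraries and 28.4 to 34.3% in fed ones. Counted as 1 feature, the 3 had 152 ± 24.2 CPM in fasted and 440 ± 8.10 CPM in fed mice (-1.51, adjusted p = 0.000984), so the summed feature fell as well.

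Cyp2c44, an arachidonic acid epoxygenase known from kidney and vessels, had 42.9, 53.4 and 90.3 CPM in fasted and 202, 245 and 279 CPM in fed libraries (-1.95 ± 0.35, adjusted p = 0.00357). Cyp2c29, an epoxygenase inducible by phenobarbital, had 163, 213 and 257 CPM in fasted and 513, 516 and 447 CPM in fed libraries (-1.20 ± 0.20, adjusted p = 0.00376). Cyp2c55 had 2.86, 2.13 and 3.32 CPM in fasted and 11.4, 16.2 and 6.05 CPM in fed libraries (-1.99 ± 0.45, adjusted p = 0.0077). In each of these the groups stood apart. Spliced words of Cyp2c44 and Cyp2c55 were shared with no other member, but their introns, which were counted as well, were not compared.

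Cyp2c38 and Cyp2c39, a pair of copies known for epoxygenase and retinoic acid hydroxylase activity, did not follow. Cyp2c38, with the highest mean CPM of any member, had 2155, 2124 and 3886 CPM in fasted and 2689, 1874 and 2223 CPM in fed libraries (0.29 ± 0.32, adjusted p = 0.459). Cyp2c39 had 21.7 to 27.0 CPM in fasted and 16.0 to 23.1 CPM in fed libraries (0.33 ± 0.19, adjusted p = 0.17). Both overlapped between feeding states. Cyp2c66, known from intestine, had 0.302 to 0.362 CPM in fasted and 0.132 to 0.527 CPM in fed libraries (-0.04 ± 0.48, adjusted p = 0.957), so fasted and fed libraries overlapped at a level near 0.

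The 4 near-identical genes Cyp2c67, Cyp2c68, Cyp2c40 and Cyp2c69 were dominated by 1 fed mouse. Cyp2c69 had 247, 126 and 170 CPM in fasted libraries and 285, 533 and 4010 CPM in fed ones. Cyp2c40, which hydroxylates arachidonic acid, had 103, 49.5 and 70.4 CPM in fasted libraries and 198, 312 and 925 CPM in fed ones. Cyp2c68 had 671, 527 and 715 CPM in fasted and 621, 645 and 1442 CPM in fed libraries, and Cyp2c67 had 250, 178 and 268 CPM in fasted and 251, 205 and 524 CPM in fed libraries. Fed library C was the highest of the 6 in all 4 genes, and in Cyp2c69 it exceeded the next library by a wide margin.

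Cyp2c69 and Cyp2c40 passed the test (log2 fold change -3.15 ± 1.18, adjusted p = 0.0445, and -2.68 ± 0.73, adjusted p = 0.0155). Without fed library C, Cyp2c69 changed by -1.16 (adjusted p = 0.049) and Cyp2c40 by -1.76 (adjusted p = 0.0103). The Cyp2c69 call was lost when fasted library A, B or C was left out, with log2 fold changes of -3.44, -2.94 and -3.10 in these fits. Cyp2c68 (-0.49 ± 0.42, adjusted p = 0.319) and Cyp2c67 (-0.48 ± 0.45, adjusted p = 0.345) did not pass. Summed as 1 feature, the 4 genes had 1125 ± 213 CPM in fasted and 3317 ± 3109 CPM in fed mice (-1.56, adjusted p = 0.0931), and without fed library C, a combination chosen after seeing the data, the difference was -0.42 (adjusted p = 0.184). Cyp2c69 made up 13.9 to 19.4% of the sum in fasted libraries, and 21.0, 31.5 and 58.1% in fed libraries A, B and C. The frozen IP and the supernatant of the same letter showed the same excess. Cyp2c69 had 275, 550 and 3659 CPM in fed frozen IP, against 241, 116 and 156 CPM in fasted frozen IP, and 5.77, 14.1 and 64.6 CPM in fed supernatant, against 8.41, 3.82 and 7.56 CPM in fasted supernatant.

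**Figure D3:**
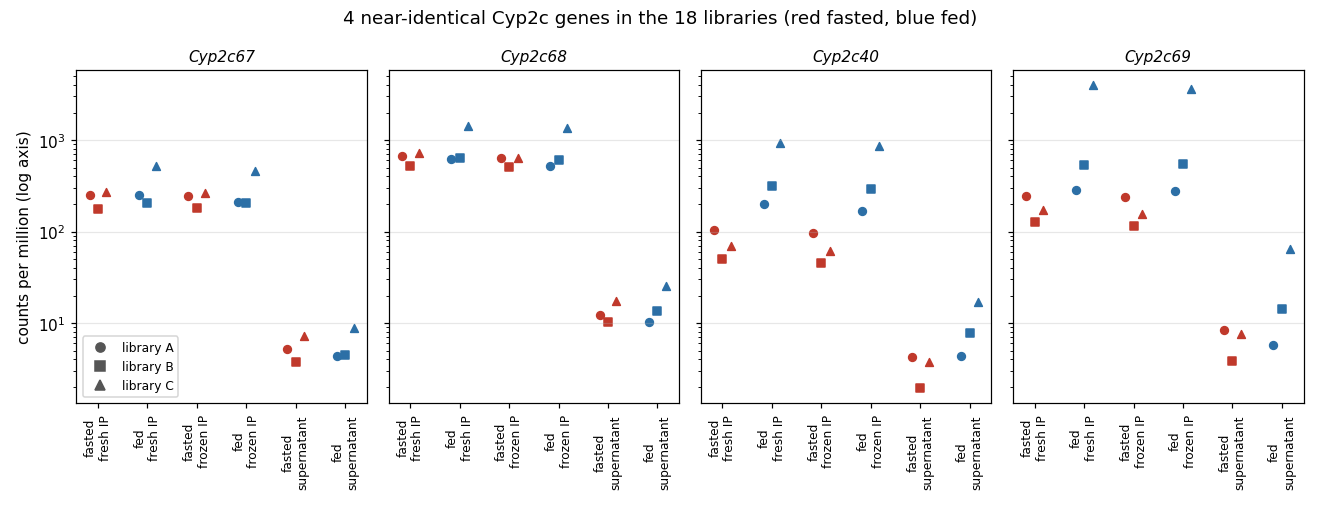
CPM on a log axis of the 4 near-identical Cyp2c genes in all 18 libraries, with fasted groups (red) left of fed groups (blue) and the library letter given by the marker. The triangle of fed library C is the highest of the fed points in each gene and preparation, at 4010 CPM for Cyp2c69 in fresh IP.

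In other respects fed library C of fresh IP was not uniform with its group. Its summed hepatocyte markers were 12885 CPM, against 17847 and 18510 CPM in the other fed libraries, and its endothelial markers 93.4 CPM, against 45.4 and 50.4 CPM. The part of these differences in the Cyp2c values was not tested. With the library left out, the counts of members that fell and rose in fresh IP were unchanged at 10 and 4.

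Of the Cyp2d genes, Cyp2d40 fell, with 3.55, 4.19 and 2.14 CPM in fasted and 11.7, 8.49 and 6.58 CPM in fed libraries (-1.41 ± 0.37, adjusted p = 0.0139). Cyp2d11 rose, with 2.45, 1.11 and 1.61 CPM in fasted and 0.644, 0.396 and 0.578 CPM in fed libraries (1.65 ± 0.37, adjusted p = 0.019), and lost the call without fed library B or fasted library A. The groups of both genes stood apart at low levels. Cyp2d11 has a close copy in Cyp2d10, which had 123, 133 and 111 CPM in fasted and 156, 129 and 102 CPM in fed libraries (-0.06 ± 0.19, adjusted p = 0.806). The sum of the pair did not pass (-0.05, adjusted p = 0.852), and Cyp2d11 made up 0.825 to 1.95% of that sum in fasted and 0.305 to 0.561% in fed libraries.

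The abundant Cyp2d26 had 237, 225 and 171 CPM in fasted and 280, 186 and 250 CPM in fed libraries (-0.16 ± 0.23, adjusted p = 0.571). Cyp2d22 had 118, 119 and 102 CPM in fasted and 164, 142 and 105 CPM in fed libraries (-0.25 ± 0.20, adjusted p = 0.285). Cyp2d9, a steroid 16-alpha-hydroxylase that is more abundant in male mice, ranged from 3.22 to 9.62 CPM in fasted and from 3.56 to 9.75 CPM in fed libraries (0.21 ± 0.66, adjusted p = 0.769). All 3 overlapped between feeding states.

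Cyp2f2, which activates naphthalene in airway club cells and is periportal in liver, had 88.7, 84.5 and 62.8 CPM in fasted and 235, 174 and 96.2 CPM in fed libraries. The groups did not overlap and the gene was called lower (-1.07 ± 0.41, adjusted p = 0.0337), but the call was lost in 5 of 6 fits with 1 library left out, all except the one without fed library C, where it was -1.36 (adjusted p = 0.00446).

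The Cyp2j genes went the other way. Cyp2j8 had 51.5, 28.5 and 27.3 CPM in fasted and 13.2, 7.39 and 7.11 CPM in fed libraries (1.97 ± 0.41, adjusted p = 0.00608). Cyp2j9, known as a brain enzyme, had 223, 151 and 147 CPM in fasted and 104, 83.2 and 97.0 CPM in fed libraries (0.89 ± 0.22, adjusted p = 0.0137). Cyp2j6 had 147, 117 and 103 CPM in fasted and 76.8, 63.2 and 63.0 CPM in fed libraries (0.88 ± 0.18, adjusted p = 0.00775). These 3 genes lie next to each other between 96444588 and 96591485, and each fasted library was above each fed one. The next gene, Cyp2j5, an epoxygenase of liver and kidney and the most abundant of the subfamily, had 881, 740 and 905 CPM in fasted and 1409, 961 and 1254 CPM in fed libraries. It did not pass (-0.50 ± 0.19, adjusted p = 0.0751), although the groups did not overlap, while DESeq2 called it lower (-0.52, adjusted p = 0.0237). Cyp2j proteins were at most 83.9% identical to another member, and under 1% of the 50-base words of their spliced transcripts were shared with other members. Their introns were not compared.

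In frozen IP, the same mice gave a second preparation. Again 10 of 25 members fell and 4 rose, beside 11.6% and 11% of 12926 genes (22.6% in either direction), and Cyp2c70 (-4.32 ± 0.43, adjusted p = 0.000651) and Cyp2j8 (2.15 ± 0.33, adjusted p = 0.00247) again stood at the ends. Cyp2c70 had 41.4, 17.1 and 27.7 CPM in fasted frozen and 436, 538 and 747 CPM in fed frozen libraries. Cyp2j8 had 56.0, 35.0 and 32.8 CPM in fasted frozen and 12.2, 7.57 and 7.90 CPM in fed frozen libraries. Neither gene overlapped between feeding states. Because fresh and frozen IP come from the same mice, the second set of calls is a repeat of the preparation and not of the animals.

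With 1 library left out, several calls in frozen IP were lost. Without fasted library C the number that fell was 6, as Cyp2d40, Cyp2c40, Cyp2c69 and Cyp2f2 lost their calls, with log2 fold changes of -1.03, -2.61, -3.07 and -1.01 in that order. Cyp2d11 (1.64 ± 0.73, adjusted p = 0.045) kept its call only without fasted library B. Cyp2c69 (-3.12 ± 1.16, adjusted p = 0.0388) lost it without any fasted library or fed library C. Cyp2f2 (-1.05 ± 0.37, adjusted p = 0.0324) lost it without any fasted library or fed library B, and Cyp2d40 (-1.26 ± 0.40, adjusted p = 0.0278) without fasted library A or C or fed library A. Without fed library C, Cyp2c69 changed by -1.28 (adjusted p = 0.0519) and Cyp2c40 by -1.75 (adjusted p = 0.0164), against -2.68 ± 0.76 (adjusted p = 0.0163) with it. The summed Cyp2c37, Cyp2c54 and Cyp2c50 fell by 1.59 on the log2 scale (adjusted p = 0.00172) in frozen IP.

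The authors' deposited table of their own comparisons held all 25 members. At an adjusted p under 0.05 it called 14 of them for fresh and 15 for frozen IP, beside 32.4% and 33.4% of its 15052 genes with an adjusted p, 14 of which were called here too in each preparation, and its log2 fold changes had the same sign as those given here in 25 of 25 members for both.

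In supernatant, where members had far fewer counts, 22 were tested. Of these 4 fell and 1 rose, beside 2.84% and 3.38% of 13921 genes, or 6.22% in either direction. Cyp2c70 had 4.13, 1.15 and 3.31 CPM in fasted and 11.8, 14.9 and 19.3 CPM in fed supernatant (-2.40 ± 0.59, adjusted p = 0.0204). The others that fell were Cyp2c54 (-1.55 ± 0.21, adjusted p = 0.011), Cyp2c50 (-1.34 ± 0.28, adjusted p = 0.0278) and Cyp2c29 (-0.87 ± 0.15, adjusted p = 0.0165), and the one that rose was Cyp2j8, with 1.54, 1.18 and 1.08 CPM in fasted and 0.587, 0.335 and 0.510 CPM in fed supernatant (1.41 ± 0.26, adjusted p = 0.036). Fasted and fed supernatant libraries of these genes did not overlap.

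These 5 genes had the same direction in IP. The Cyp2j8 call was lost in each of 6 omissions of 1 library, and the Cyp2c50 call in all but that of fed library A. The Cyp2c70 call was lost without fed library B or C, that of Cyp2c29 without fed library B or fasted library A, and that of Cyp2c54 without fasted library A. Between 1 and 4 members fell when 1 library was left out. Summed hepatocyte markers in supernatant were 867 to 1398 CPM in fasted and 529 to 937 CPM in fed libraries. The part of carried-over hepatocyte nuclei in these values was not tested.

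**Figure D4:**
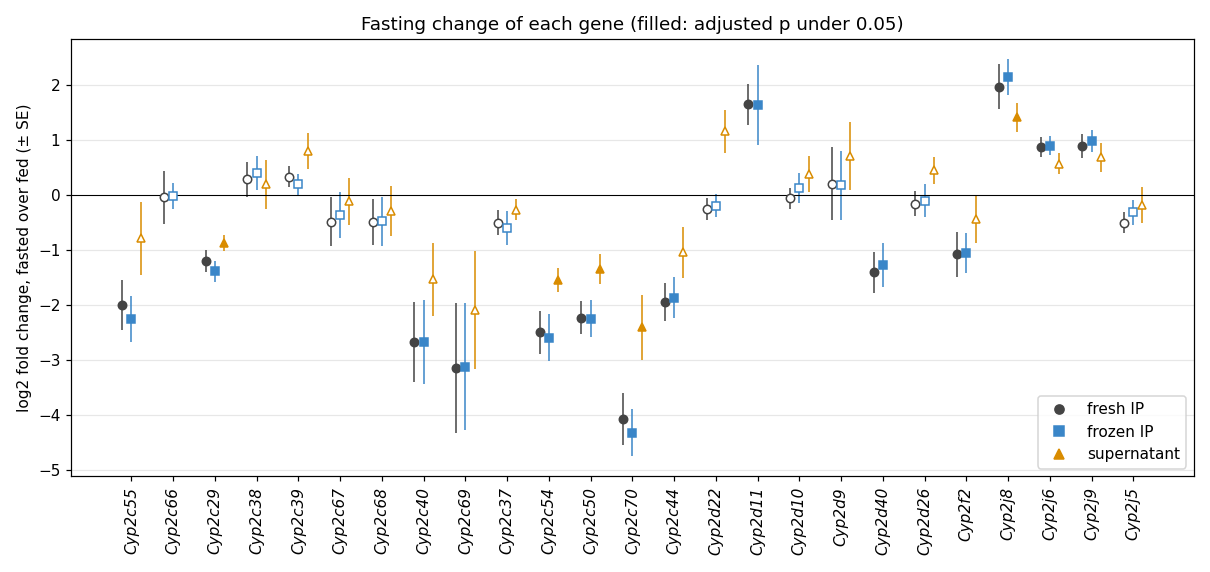
Log2 fold change of fasted over fed with SE for each tested gene in fresh IP (grey circles), frozen IP (blue squares) and supernatant (orange triangles), filled where the adjusted p is under 0.05. Points of fresh and frozen IP lie close together, from about -4.07 and -4.32 at Cyp2c70 to 1.97 and 2.15 at Cyp2j8, and Cyp2d22 has 1.16 in supernatant beside -0.25 in fresh IP.

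The difference between the responses in the fractions was tested by an interaction term over fresh IP and supernatant. Cyp2d22 was the one member called (-1.46 ± 0.44, adjusted p = 0.0307), beside 9.54% of 14322 genes in either direction with 5.83% lower and 3.71% higher. It had 25.2, 25.7 and 38.2 CPM in fasted and 19.5, 12.05 and 8.54 CPM in fed supernatant, a difference that did not pass on its own (1.16 ± 0.40, adjusted p = 0.0624), although the groups did not overlap. It was called higher there with DESeq2 (1.16, adjusted p = 0.00203), in the fit of all 18 libraries and without fed library A. In IP it did not pass. The Cyp2d22 call was lost in 8 of 12 fits with 1 library left out, all except those without IP libraries fasted B and fed C and supernatant libraries fasted B and fed A. With the mouse as a block, 4 members were called lower and none higher, beside 6.35% and 3.87% of genes, as Cyp2c70 (-1.67, adjusted p = 0.00816), Cyp2c40 (-1.09, adjusted p = 0.0148) and Cyp2c50 (-1.01, adjusted p = 0.0462) joined Cyp2d22 (-1.50, adjusted p = 0.0164). The log2 fold changes in fresh IP and supernatant were -4.07 and -2.40 for Cyp2c70, -2.68 and -1.53 for Cyp2c40, and -2.23 and -1.34 for Cyp2c50.

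IP was compared with supernatant over both feeding states to see which fraction holds the members' RNA. All 25 tested members were higher in IP, beside 42% of all genes (43% were lower, 85.1% in either direction), by a median of 4.89 on the log2 scale. The difference was widest for Cyp2c38 (6.05 ± 0.28, adjusted p = 8.16e-10) and narrowest for Cyp2c66 (1.45 ± 0.32, adjusted p = 0.00323), Cyp2d22 (2.59 ± 0.22, adjusted p = 6.1e-08) and Cyp2j6 (3.74 ± 0.13, adjusted p = 4.53e-11). Cyp2d22 had 102 to 119 CPM in fasted IP, against 25.2 to 38.2 CPM in fasted supernatant, and 105 to 164 CPM in fed IP, against 8.54 to 19.5 CPM in fed supernatant. IP and supernatant libraries overlapped in 1 member, Cyp2c66, and did not in 24 of 25, beside 66.9% of all genes tested. A fit that kept each mouse as a block again had 25 members higher, beside 42.1% of genes higher and 43.3% lower.

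Frozen and fresh IP were compared over both feeding states. With edgeR no member was called, beside 5.16% of 13162 genes (4.72% higher and 0.441% lower). An unadjusted edgeR p under 0.05 was found for 1 of 25 members and 1686 of the 13162 genes. DESeq2 called no member. Differences ran from -0.41 (Cyp2c55) to 0.18 (Cyp2d11). With the mouse as a block, 5 members were lower and none higher in frozen IP, beside 7.07% and 9.41% of genes, namely Cyp2c29 (-0.27, adjusted p = 0.00212), Cyp2c70 (-0.29, adjusted p = 0.00314), Cyp2c55 (-0.39, adjusted p = 0.0115), Cyp2c44 (-0.15, adjusted p = 0.0208) and Cyp2c40 (-0.12, adjusted p = 0.0312). Cyp2c29 had 129 to 182 CPM in fasted frozen IP, against 163 to 257 CPM in fasted fresh IP, and 389 to 487 CPM in fed frozen IP, against 447 to 516 CPM in fed fresh IP. Endothelial markers were called higher in frozen IP for 7 of 8 genes and Kupffer cell markers for 6 of 8, with summed Kupffer cell markers of 25.5 to 92.1 CPM in frozen and 7.39 to 15.7 CPM in fresh IP. The 92.1 CPM was that of fed frozen library B, which had the fewest counts (13828945), and the other frozen libraries had 25.5 to 35.2 CPM. The part of endothelial and Kupffer cells in the small differences between preparations was not tested. No gene was called in edgeR for a fasting response that differed between frozen and fresh IP, and DESeq2 called 0 members. An unadjusted edgeR p under 0.05 was found for 0 of 25 members and 43 of 13162 genes. Both preparations came from the same mice, which that fit did not pair, so it cannot show that the responses were equal. With the mouse as a block, 0 genes were called as well. Differences among members ran from -0.26 to 0.18.

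**Figure D5:**
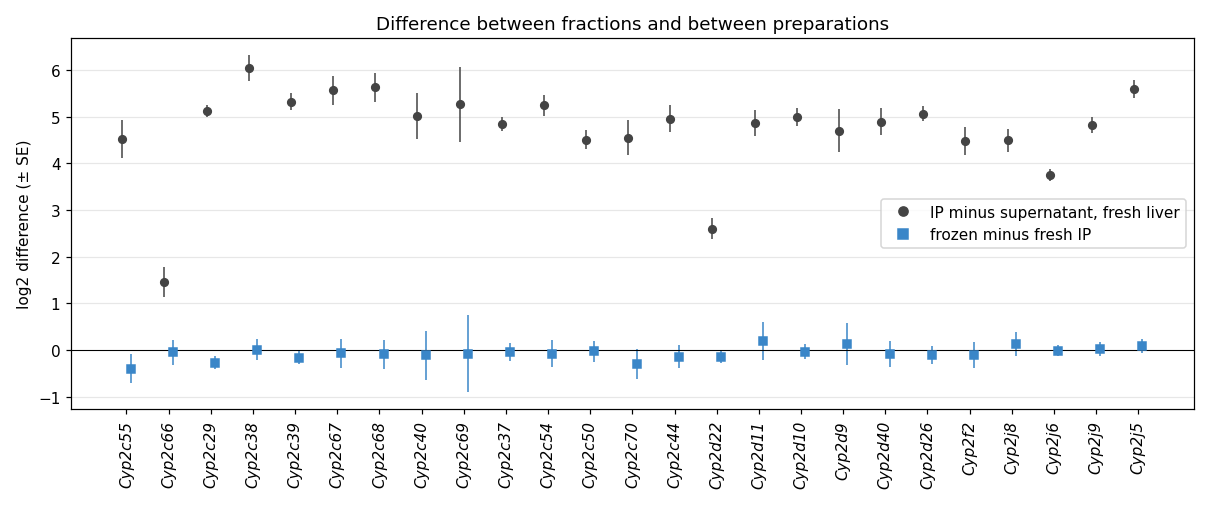
Log2 difference with SE for each tested gene between IP and supernatant of fresh liver (grey circles) and between frozen and fresh IP (blue squares), over both feeding states. All IP differences lie above 0, from 1.45 (Cyp2c66) to 6.05 (Cyp2c38), while those between preparations stay between -0.41 and 0.18.

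Genes that work with these enzymes were followed in fresh IP, where 12.6% of all genes tested fell and 12.4% rose. Of 8 genes for electron transfer and heme supply, 2 rose and 3 fell, with a median of -0.58. Alas1, the rate-limiting enzyme of heme synthesis, rose by 2.31 ± 0.37 (adjusted p = 0.00272) and Por, P450 oxidoreductase, by 1.72 ± 0.31 (adjusted p = 0.00448). Cyb5a (-1.18 ± 0.22, adjusted p = 0.00578) and Cyb5b (-1.39 ± 0.13, adjusted p = 0.00116), the cytochromes b5, and their reductase Cyb5r3 (-1.13 ± 0.10, adjusted p = 0.00129) fell. Of 3 tested epoxide hydrolases, Ephx2, the soluble enzyme, rose by 1.66 ± 0.30 (adjusted p = 0.00368). These are changes of nuclear RNA, and electron transfer itself was not measured.

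Of 23 transcription factors known to act on liver P450 genes, 5 rose and 4 fell in fresh IP, with a median of -0.52. Over all genes tested there 12.4% rose and 12.6% fell. In frozen IP 3 of the 23 rose and 6 fell, beside 11% and 11.6% of genes. Values that follow are from fresh IP, and not all of the 5 that rose there were called higher in frozen IP. Nr1i2 (PXR) rose by 1.05 ± 0.34 (adjusted p = 0.0224), Nr1i3 (CAR) by 0.86 ± 0.25 (adjusted p = 0.0226), Foxa3 by 1.32 ± 0.19 (adjusted p = 0.00221), Cebpb by 0.97 ± 0.18 (adjusted p = 0.0138) and Hnf4a by 0.54 ± 0.18 (adjusted p = 0.0482). Dbp fell by 4.39 on the log2 scale (SE 0.20, adjusted p = 2e-04), Tef by 0.84 (SE 0.13, adjusted p = 0.0042), Foxa2 by 1.06 (SE 0.20, adjusted p = 0.00646) and Nr3c1, the glucocorticoid receptor, by 0.75 (SE 0.08, adjusted p = 0.00543). Stat5b, which carries the growth hormone signal, had -0.54 and did not pass (adjusted p = 0.0971).

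Over all genes tested in fresh IP, 12.6% fell and 12.4% rose. Other Cyp2 subfamilies, 17 genes in the table, had 11 tested, of which 6 fell and 0 rose, with a median of -1.22. They included Cyp2a5 (-2.83 ± 0.19, adjusted p = 0.000361), the coumarin 7-hydroxylase, Cyp2g1 (-3.72 ± 0.48, adjusted p = 0.00224), Cyp2r1, the vitamin D 25-hydroxylase (-1.22 ± 0.18, adjusted p = 0.00274), and Cyp2e1 (-0.95 ± 0.34, adjusted p = 0.0399). Of 12 pericentral hepatocyte genes 5 fell and 0 rose, and of 11 periportal ones 3 fell and 2 rose. Cyp2c29, which is pericentral, and Cyp2f2 also fell, and a link to the zone was not tested. Of 31 tested genes within 200 kb of a member, 5 fell and 2 rose, beside 12.6% and 12.4% of all genes. Their median was -0.12. On chromosome 19, where the called Cyp2c genes fell, Hells rose by 0.77 ± 0.08 (adjusted p = 0.0069) and Dnmbp by 0.75 ± 0.19 (adjusted p = 0.0173), while Bloc1s2 had -0.48 ± 0.12 (adjusted p = 0.0493). On chromosome 4, where the called Cyp2j genes rose, Fggy had -0.64 ± 0.13 (adjusted p = 0.0204). Beside Cyp2f2, which fell, Adck4 had -0.47 ± 0.08 (adjusted p = 0.0242) and Rab4b -0.39 ± 0.09 (adjusted p = 0.047). Cenpm, beside the Cyp2d genes, had -2.59 ± 0.71 (adjusted p = 0.0239).

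Markers of other cells were low in fresh IP and differed between feeding states in part. Summed endothelial markers were 26.4 to 55.3 CPM in fasted and 45.4 to 93.4 CPM in fed libraries, Kupffer cell markers 9.99 to 11.99 CPM in fasted and 7.39 to 15.7 CPM in fed libraries, and stellate cell markers 50.9 to 66.7 CPM in fasted and 70.3 to 128 CPM in fed libraries. Lymphocyte markers summed to 5.46 to 7.35 CPM in fasted and 9.32 to 14.5 CPM in fed libraries. Cholangiocyte markers summed to 197 to 248 CPM in fasted and 560 to 581 CPM in fed libraries, nearly all from Pkhd1 (222 ± 25.4 CPM in fasted and 566 ± 11.5 CPM in fed mice), while Krt19, Krt7 and Epcam were at or under 0.33 CPM in each library. Summed hepatocyte markers were 19527 to 25653 CPM in fasted and 12885 to 18510 CPM in fed libraries, higher in fasted mice, whereas the members summed to 5109 to 7293 CPM in fasted mice and 7112 to 13195 CPM in fed mice. The part of other cells in the P450 results was not tested.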

How the data were processed

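Nuclear RNA of 18 libraries in 6 groups of 3 was analysed. Per the labels' protocols, 50 to 100 ng of total RNA was made into stranded libraries without poly-A selection and sequenced as 50 bp pairs. STAR 2.4.2a, DESeq2 1.24.0 and mm10 are named in the submitters' processing notes, without their roles. The authors deposited raw counts per gene, which were not normalized. The authors' deposited table of comparisons, with log2 fold changes, adjusted p-values and normalized counts (a signal in linear units), was used only where named, and its normalized counts were not used. The deposited gene length is the span of the gene, introns included. A further 6 columns of the count table match no sample and were not used.

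Counts were tested with edgeR 4.0.16 (quasi-likelihood, TMM, filterByExpr, R 4.3.3) in 7 comparisons, each over its own groups with no block, with Benjamini-Hochberg adjustment over all genes tested. A call is an adjusted p under 0.05. CPM are TMM-scaled over 18 libraries, and ± beside a fold change is an SE. It was computed from log2 CPM (prior count 2) as for a contrast of independent group means, over all groups of the comparison. The SE thus belongs to mean log2 CPM, whereas the fold change beside it is the edgeR estimate. The mouse is not in that SE. Replicates are separate mice. Alternatives were RLE and upper quartile scaling, DESeq2 1.42.0, no filter, all 18 libraries in 1 fit, summed near-identical copies, each library left out, the mouse as replicate block, and all libraries of fed mouse C left out in comparisons across preparations. The last, and the summed copies and the levels per kb without fed library C, were chosen after seeing the data.

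Count table columns carry letters that stand in no label and were assigned to groups only. Whether they pair the libraries of 1 mouse was checked before the fits with the mouse as a block. Deviations of log2 CPM from group means of 2 preparations correlated at 0.304 to 0.682 (frozen against fresh IP) and 0.115 to 0.308 (IP against supernatant) for the same letter, and at -0.462 to 0.0292 for different letters. The letter within a feeding state was therefore used as the block.

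The members and gene lists were chosen with earlier results of these data known. Every member is accounted for. Values of each library are given for members called in fasting in fresh IP or in an interaction and for the most and least abundant of each subfamily, and others were added beside their near-identical copies. Proteins compared were the longest open reading frames of GENCODE M21 transcripts, in place of RefSeq proteins. Promoters are from RefSeq, of the same build.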

Additional observations from a re-analysis of the deposited data

Results flagged for a closer look

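The fasting response of Cyp2d22 was called different between fractions, by an interaction of -1.464 on the log2 scale (IP minus supernatant, edgeR adjusted p = 0.0307, n = 3 libraries a group). Its mean was 113 ± 9.53 CPM in fasted and 137 ± 29.7 CPM in fed fresh IP, and 29.7 ± 7.36 CPM in fasted and 13.4 ± 5.59 CPM in fed supernatant. The call was lost in 8 of 12 fits with 1 library left out. In the main fits its fasting change passed in neither fraction alone. It was 1 called member of 25, beside 9.54% of all genes.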

How the results depend on the processing

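Over the alternatives, 2782 values of tested members were computed. Of 892 values of members called in the main comparison 0 changed sign and 52 lost the call, and of 1890 values of members not called 213 changed sign and 24 gained a call. Many of the 892 came from IP against supernatant, where all 25 members were called and no call was lost. The lost calls were all in the fasting comparisons and the interaction of fasting with fraction. The pooled count therefore understates how often a fasting call was lost. DESeq2 added Cyp2c37 and Cyp2j5 to the members that fell in fresh IP, 12 in all. Fasting in supernatant had 4 members higher with DESeq2, which added Cyp2d22, Cyp2j6 and Cyp2j9. It also added Cyp2c40 and Cyp2c44 to those lower there. The shares of all genes called by DESeq2 are not given here, so its counts stand without a background. With 1 library left out, members that fell in frozen IP numbered 6 to 9, members lower in supernatant 1 to 4 and members higher there 0 to 1, and members with a lower fasting response in IP than in supernatant 0 to 2. That last count was 2 with DESeq2. With the mouse as replicate block, members lower in frozen than in fresh IP numbered 5, and those with a lower fasting response in IP than in supernatant 4. This paired fit changed no other count of members by over 1.5 times. The causes were not tested. RLE and upper quartile scaling and no filter changed no call of a member. Members took at most 0.0290% of the counts in supernatant, where 22 were tested.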
